A study of Drosophila melanogaster with 13 samples.

Results

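Notch RNAi was added to Shal RNAi in a single identified motoneuron of the Drosophila melanogaster larva, MN1-Ib, and the RNA of these cells was compared with that of cells with Shal RNAi alone. The comparison uses 6 of the 13 libraries of the study, chosen by their labels: 3 labelled Notch+Shal RNAi and 3 labelled Shal RNAi. All genes of the table entered it, and 8908 of 17753 had enough counts to be tested. The remaining libraries, 3 control and 4 labelled Notch RNAi, hold the same addition of Notch RNAi without Shal RNAi and share no library with the main comparison. They enter the same fit, which sets the spread behind the p-values of both comparisons.

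Every group carried the MN1-Ib-GAL4 driver and the UASmCD8:GFP reporter, controls included. The genotypes were MN1> GFP for control, MN1> GFP, Shal_RNAi for Shal RNAi, MN1> GFP, Notch RNAi for Notch RNAi, and MN1> GFP, Notch RNAi, Shal_RNAi for the double group, all in larvae of instar 3. RNA interference was therefore directed at the cells in which this driver is active. Cell content was drawn into a patch pipette, 4 to 8 cells were pooled for each reaction, and polyadenylated RNA was copied and amplified by PCR. The sources used here do not give the insertions or the genetic background of the RNAi lines, so the Notch construct with its background and the targeting of Notch cannot be told apart. The labels do not tie reactions to larvae, and p-values measure the spread between reactions. In pooled cells, fewer cells that express a gene and less RNA per cell cannot be told apart.

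Notch, encoded by N, is a receptor that is cleaved when it binds the ligands Delta or Serrate. Its intracellular part enters the nucleus and, with Su(H) and mastermind, turns on targets such as the E(spl) repressors. Shal encodes the Kv4 channel of the fast A-type potassium current in motoneuron dendrites and cell bodies. Fly motoneurons that lose Shal are known to adjust other channels, among them Shaker and slo, with the transcription factor Krüppel taking part. MN1-Ib is a glutamatergic motoneuron that innervates a dorsal body wall muscle.

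Total gene counts were 4331405, 7192619 and 5415758 in Shal RNAi 1, 2 and 3 and 6737490, 9066553 and 6229931 in Notch+Shal RNAi 1, 2 and 3. The triplets of values that follow are in this order of replicates. Levels are normalised CPM, counts scaled by the product of the library total and its TMM factor. Overlap of gene levels between groups is judged on this scale unless another is named. VGlut, which loads vesicles with glutamate, was at 3082, 1614 and 2071 in Shal RNAi and at 1039, 2262 and 724 in Notch+Shal RNAi. The glial marker repo and the cholinergic marker ChAT had no count in these 6 libraries, nor had alrm, gcm, Gad1 and Trhn. Other markers of glia and other neurons were found, here in CPM by library total. Gs2 ran from 16.3 in Shal RNAi 2 to 169 in Shal RNAi 1. Eaat1 was at 34.4 and 61.9 in Shal RNAi 1 and 3, and moody at 76.6 in Shal RNAi 3. ple was at 143 in Shal RNAi 3 and 203 in Notch+Shal RNAi 3. The missing counts therefore do not show that RNA of other cells was absent.

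The libraries labelled Shal RNAi stood apart from the double libraries in composition. Mitochondrially encoded RNA took 13.5%, 5.36% and 11.5% of counts in Shal RNAi and 2.26%, 0.893% and 4.69% in Notch+Shal RNAi. The groups did not overlap, and Shal RNAi 2 was the nearest to the double libraries. The difference was -7.52 percentage points, with an exact permutation p of 0.1 (2-sided), the smallest that 3 against 3 libraries allow. The TMM factors were 0.568, 1.04 and 0.620 against 1.10, 1.26 and 0.956. At least 1 count was found for 7698, 8212 and 7364 genes in Shal RNAi and for 8835, 8961 and 9272 genes in Notch+Shal RNAi, a difference of 1265 genes (2-sided exact permutation p = 0.1). Counts at 3 or fewer in all of Shal RNAi and 10 or more in each double library were found for 124 of 17753 genes, and the reverse for 6. With control in place of the double libraries, these numbers were 154 and 1. Between control and Notch+Shal RNAi, 12 genes were at 3 or fewer in control and 15 in Notch+Shal RNAi. In control, the mitochondrial share was 2.51 ± 0.110% (SD, n = 3), and 9138 ± 119 genes were detected. Fold changes and list medians of the main comparison are therefore given again without Shal RNAi 1 and 3. Given are those that move by at least 1.5 times or turn their sign, except for genes that had no count in Shal RNAi 2. Interactions and values against control are not given again. The medians without Shal RNAi 1 and 3 include fitted values of genes with no count in Shal RNAi 2, which depend on the prior count.

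**Figure D1:**
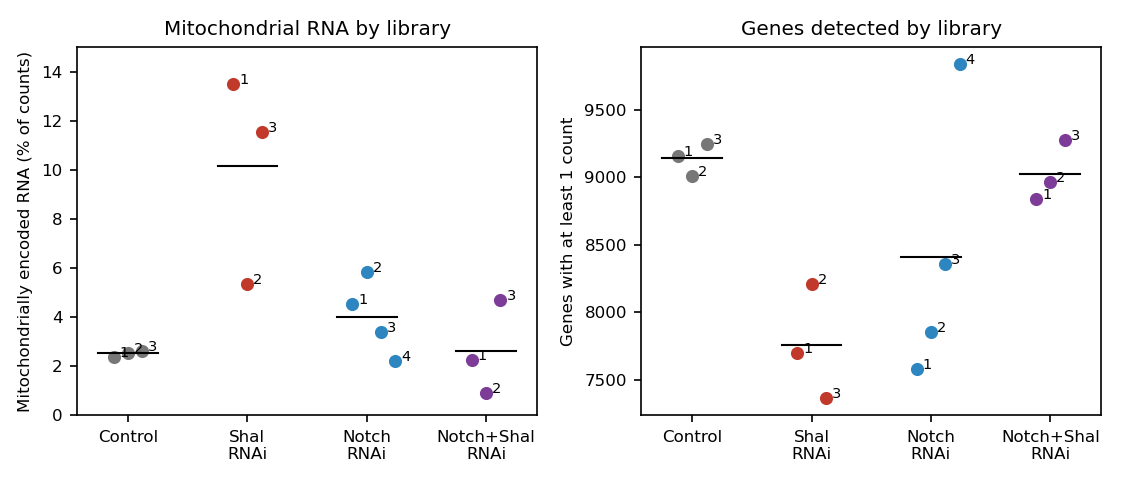
The share of counts from mitochondrially encoded genes (left, percent) and the number of genes with at least 1 count (right) in each of the 13 libraries, by group. Points are libraries with their replicate number and lines are group means; Shal RNAi 1 and 3 lie at 13.5% and 11.5% in the left panel, and all 3 double libraries lie above all 3 Shal RNAi libraries in the right panel.

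The targets of RNA interference were examined first. Shal (FBgn0005564, chromosome 3L, bases 19566851 to 19584568, minus strand, BDGP6.54) was at 94, 107 and 218 normalised CPM in Shal RNAi and at 71.1, 30.1 and 21.6 in Notch+Shal RNAi. In these normalised levels, all 3 double libraries lay below all 3 single libraries. The log2 fold change was -1.77 (SE 0.84), with an unadjusted p under 0.05 and an edgeR adjusted p of 0.399. A 2-sided exact permutation test on log2(normalised CPM + 1) gave a difference of -1.83 and p = 0.1, the smallest possible. With CPM by library total, the same exact test gave a difference of -1.22 and p = 0.2, so the groups overlapped there. The separation of the groups thus depends on the TMM factors. In control, Shal was at 4.74, 84.5 and 36.4. The level in the libraries labelled Shal RNAi thus did not lie below control, so directions here are drawn from labels that the Shal level does not bear out.

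N (FBgn0004647, chromosome X, bases 3134870 to 3172221, plus strand) was at 15.9, 28.7 and 2.09 in Shal RNAi and at 15, 16.2 and 346 in Notch+Shal RNAi. Notch+Shal RNAi 3 held far more N than the other double libraries, which overlapped the single libraries. The log2 fold change of 2.84 (SE 1.29, edgeR adjusted p = 0.385) became -0.15 without Notch+Shal RNAi 3, and the exact permutation test gave p = 0.5. In the independent comparison N was at 25.3, 19.1, 20.7 and 209 in Notch RNAi and 29.3, 25.6 and 183 in control, a log2 fold change of -0.16. No decrease of N RNA was therefore detected in either set of libraries labelled for Notch RNAi.

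nerfin-1 (FBgn0028999, chromosome 3L, bases 909112 to 912319, plus strand), a zinc finger factor that keeps neurons differentiated and restrains Notch signalling in fly neurons, was at 0.407, 15.3 and 0 in Shal RNAi and at 47.4, 103 and 13 in Notch+Shal RNAi. Shal RNAi 2 overlapped the lowest double library. The log2 fold change was 2.89 (SE 1.15), or 1.93 without Shal RNAi 1 and 3, with an edgeR adjusted p of 0.338 and an exact permutation p of 0.2. The 4 Notch RNAi libraries were at 233, 35.5, 46.4 and 157 and the controls at 12.4, 9.65 and 53.4. There the log2 fold change was 2.24 (SE 0.91, adjusted p = 0.9995), in the same direction, and Control 3 overlapped Notch RNAi.

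**Figure D2:**
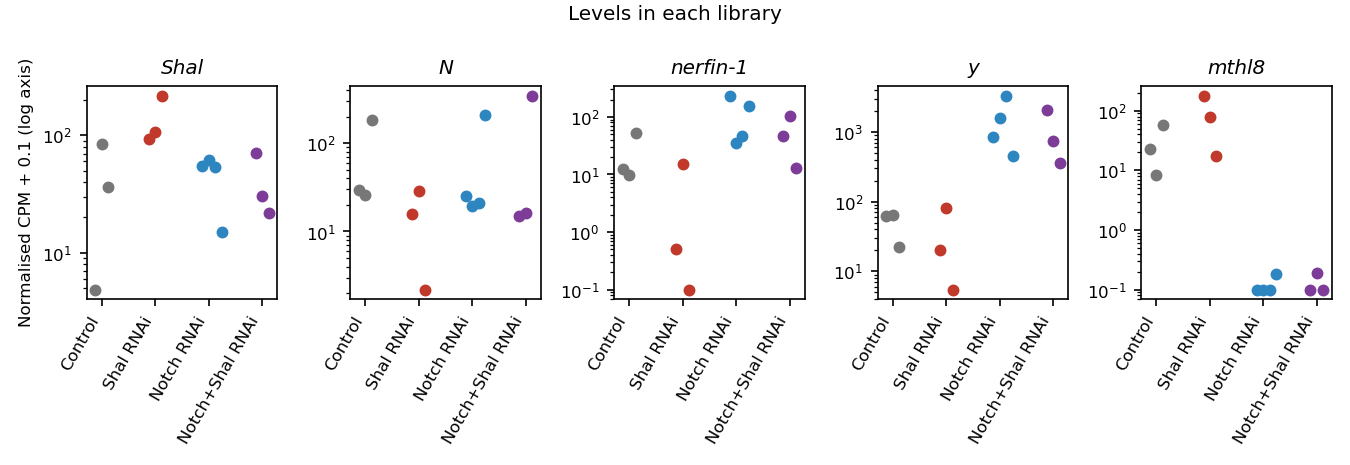
Levels of the RNAi targets Shal and N, of nerfin-1, and of y and mthl8 in each of the 13 libraries, as normalised CPM + 0.1 on log axes. Each point is a library; y is above and mthl8 below every library without Notch RNAi in all 7 libraries that carry it, while N is not lower in them.

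Over all genes, none passed an adjusted p of 0.05 in edgeR (0% of 8908), in either direction. At an unadjusted p under 0.05, 1095 genes differed (12.3% of 8908), 498 of them higher (5.59%) and 597 lower (6.7%) with Notch RNAi added. The log2 fold change was above 0 for 59.8% of genes and below 0 for 39.9%, with a median of 0.38. Levels of the groups did not overlap in 7.5% of genes in the higher and 4.19% in the lower direction. DESeq2 called 183 genes higher and 124 lower at an adjusted p under 0.05, and limma voom with quality weights called 6 lower. The median biological coefficient of variation was 1.17, so replicates of a group differed widely. TMMwsp scaling lowered the median of all genes from 0.38 to 0.15, and of the genes at an unadjusted p under 0.05 it put 30.8% higher, against 45.5% with TMM and 55.9% with DESeq2. Without Shal RNAi 3 alone the 1095 genes became 604, and without Shal RNAi 1 and 3 together 273 genes had an unadjusted p under 0.05. Of the 1095 genes, 948 then had the same sign and 146 still had an unadjusted p under 0.05.

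Genes with low levels lay higher in the double libraries and those with high levels did not. Among 8827 nuclear genes ranked by their mean log2(normalised CPM + 1) over the libraries, the median log2 fold change was 1.84 in the lowest quartile, 0.71 in the second, 0.33 in the third and -0.20 in the highest. Notch RNAi against control gave -0.09, 0.03, 0.01 and 0.07 for the same quartiles. Across genes, which share their libraries and are not independent, Spearman's rho between level and log2 fold change was -0.322 in the main comparison and 0.050 in the independent one. The number of genes detected moves with this pattern, and its part in the result was not tested.

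The lowest p of all genes belonged to y (FBgn0004034, chromosome X, bases 356509 to 361245, plus strand), which encodes the secreted Yellow protein of dark cuticle pigment. It was at 20.4, 81.9 and 5.37 in Shal RNAi and at 2077, 742 and 353 in Notch+Shal RNAi. Each double library lay above each single library, which the choice of leading genes required. The log2 fold change was 4.73 (SE 0.92), with an edgeR adjusted p of 0.198, which did not pass. Notch RNAi alone gave the same direction: y was at 832, 1579, 3299.7 and 447 in Notch RNAi and at 61.8, 65 and 22.4 in control, a log2 fold change of 4.95 (SE 0.89, adjusted p = 0.0587). The test of the difference between these effects gave an adjusted p of 0.971. Without Shal RNAi 1 and 3 the main value was 3.71. y is also on the list of sex and landing-site genes. Here too the Notch construct with its background and the targeting of Notch cannot be told apart. The gene overlaps CG32816 on the opposite strand, and the strand setting of the counting was not stated.

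mthl8 (FBgn0052475, chromosome 3L, bases 22428 to 26308, plus strand), a gene of the Methuselah-like receptor family, was the opposite case. Its level was 179, 77.5 and 17.6 in Shal RNAi, while a single count was found in the 3 double libraries together. The ratio of Shal RNAi to Notch+Shal RNAi was 2006, with a counting interval of 359 to 79295 (95%, exact binomial, counting error only). The controls were at 23, 8.41 and 57.9, and the 4 Notch RNAi libraries again held a single count. The unadjusted p was 0.000118 in the main comparison and 0.000643 in the independent one, and DESeq2 called mthl8 in the main one. In all, DESeq2 called 22 of the 24 leading genes there, which had been chosen for a low p in edgeR.

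In all, 6 of 8908 genes separated the 7 libraries that carry Notch RNAi from the 6 that do not, 3 higher (0.0337%) and 3 lower (0.0337%). Beside y, the higher genes were ftz, the fushi tarazu homeodomain factor, at 5.0 to 34.2 against 0 to 3.15, and 5-HT2A, a serotonin receptor, at 0.137 to 14.4 against 0 to 0.125. Lower beside mthl8 was Ptp36E, a tyrosine phosphatase, at 1.74 to 38.4 against 38.7 to 183. These 3 genes were chosen after seeing their values. How many of 8908 genes would separate the libraries by chance was not estimated, so the count is not read as a result of Notch RNAi. The ranges of Ptp36E nearly touched, and 5-HT2A was near the level of 1 count in part of the libraries with Notch RNAi.

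Dh31 (FBgn0032048, chromosome 2L, bases 8491868 to 8506845, minus strand), which encodes the diuretic hormone 31 neuropeptide, had no count in the 3 libraries labelled Shal RNAi and was at 101, 339 and 14.3 in Notch+Shal RNAi. With the mean level of 3 counts a library as floor, that is at least 181-fold higher. The controls were at 45.2, 0.0955 and 45.4, so Control 1 and 3 lay within the range of the double libraries. Dh31 overlaps Bace on the same strand, and reads of the pair may be shared.

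Oct-TyrR, an octopamine and tyramine receptor, was at 0.814, 0 and 1.19 in Shal RNAi and at 54, 166 and 30.5 in the double libraries. The groups lay far apart, with a log2 fold change of 7.48 (SE 1.87, adjusted p = 0.208), and the controls at 55.4, 21.8 and 79.3 overlapped the double libraries. ktub, a Tubby-family protein, was at 5.29, 2.0 and 0.597 against 90.7, 111 and 23.1, a log2 fold change of 5.04 (SE 1.28, adjusted p = 0.208). mthl6, another Methuselah-like receptor, had no count in Shal RNAi and was at 13.7, 1.23 and 325 in Notch+Shal RNAi, at least 135-fold higher by the mean. That mean rests on Notch+Shal RNAi 3, and the gene was at 0 in 5 of the 7 remaining libraries.

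The remaining leading genes in this direction had modest levels in every double library. Tbc1d8-9, a predicted activator of Rab GTPase hydrolysis, was at 1.22, 10.4 and 2.69 against 98.4, 113 and 11.1, a log2 fold change of 3.61 (SE 1.07, adjusted p = 0.243). blow, the blown fuse adaptor known from myoblast fusion, was at 1.22, 4.0 and 0.298 against 26.6, 203 and 5.05, and Notch+Shal RNAi 2 stood above the others. trus was at 3.66, 6.539 and 2.09 against 52.9, 88.1 and 19.5, a log2 fold change of 3.54 (SE 1.02, adjusted p = 0.223). Ranges in Tbc1d8-9 and blow came within a small distance of each other, those in trus did not.

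lectin-24Db, a C-type lectin, was at 4.88, 0.133 and 0 against 45, 16.2 and 357, with Notch+Shal RNAi 3 far above the others. CG31323 was at 23.6, 11.1 and 2.09 against 149, 382 and 59.4 and CG9346 at 5.29, 0.801 and 0 against 18.9, 52.6 and 64.5, with log2 fold changes of 4.11 and 4.93. CG12316 had 1 count in Shal RNAi and was at 74.1, 64.1 and 14 in Notch+Shal RNAi, a ratio of 729 (131 to 28812, 95% exact binomial, counting error only). Over the 24 leading genes of both directions, edgeR adjusted p ran from 0.198 to 0.243.

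**Figure D3:**
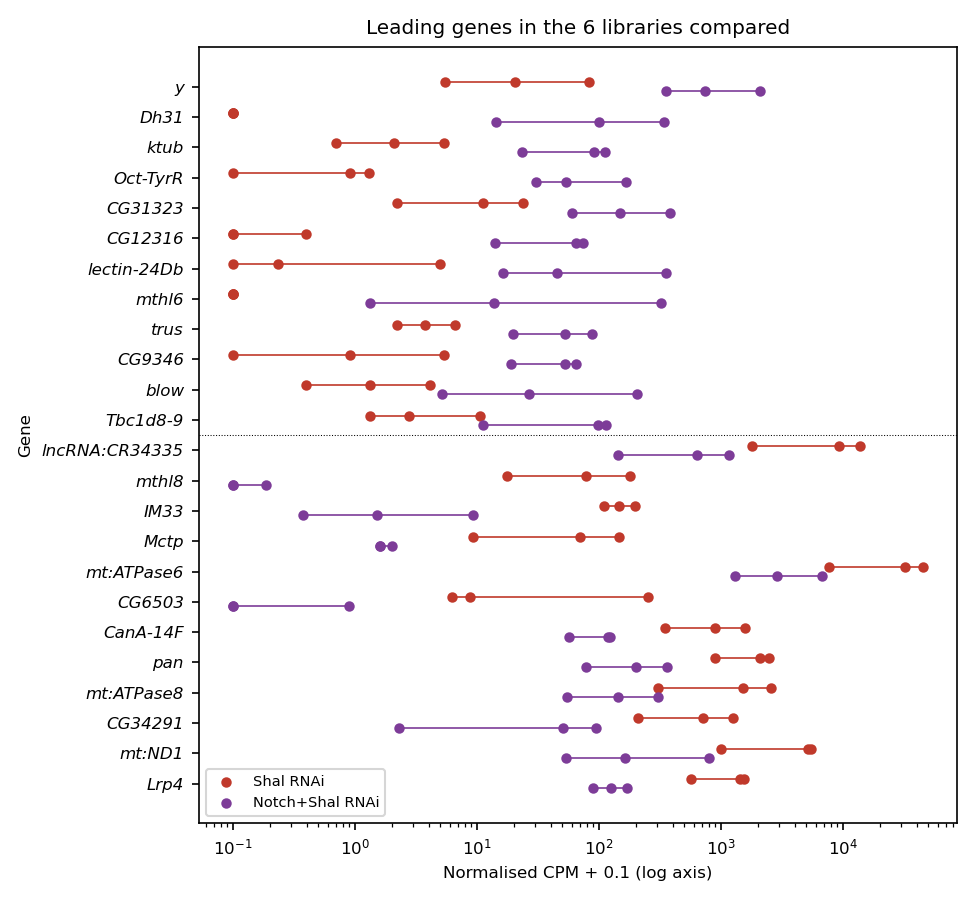
Normalised CPM + 0.1 (log axis) of the 24 leading genes in the 3 Shal RNAi and 3 Notch+Shal RNAi libraries; points are libraries and lines span each group. The upper 12 genes were higher and the lower 12 lower with Notch RNAi added, and the groups were required not to overlap; y spans 5.37 to 81.9 against 353 to 2077.

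The leading genes in the lower direction held a long noncoding RNA, signalling genes and mitochondrial RNAs. lncRNA:CR34335 (FBgn0267910, chromosome X, bases 3545750 to 3546110, minus strand) was at 13843, 1807 and 9293 in Shal RNAi and at 634, 142 and 1156 in Notch+Shal RNAi. Shal RNAi 2 lay near the double libraries, and the log2 fold change of -3.69 (SE 0.80, adjusted p = 0.208) was -1.5 without Shal RNAi 1 and 3. It overlaps DIP-alpha, a cell surface receptor gene, on the same strand, and the control libraries were at 1147, 752 and 1223.

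pan (FBgn0085432, chromosome 4, bases 69326 to 114270, plus strand), the TCF factor that acts at the end of the Wnt pathway, was at 2096, 887 and 2454 against 201, 78.2 and 358. Each Shal RNAi library lay above each double library, which the choice of leading genes required, and above each control (273, 418 and 219). The log2 fold change was -3.10 (SE 0.75, adjusted p = 0.208), and -2.07 without Shal RNAi 1 and 3. Lrp4, a lipoprotein receptor-related protein that acts presynaptically in fly neurons, was at 1436, 565 and 1553 against 169, 125 and 89.2, a log2 fold change of -3.21 (SE 0.80, adjusted p = 0.208). CanA-14F, a catalytic subunit of the calcium-dependent phosphatase calcineurin, was at 898, 349.8 and 1585 against 119, 57.1 and 124, a log2 fold change of -3.25 (SE 0.79, adjusted p = 0.208). In all of pan, Lrp4 and CanA-14F the Shal RNAi 2 level was the lowest of its group, and without Shal RNAi 1 and 3 Lrp4 was at -2.11 and CanA-14F at -1.81.

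Mctp, an endoplasmic reticulum protein with C2 domains that takes part in presynaptic homeostasis at the neuromuscular junction, was at 146, 9.21 and 69.8 against 1.91, 1.49 and 1.52. The log2 fold change of -5.42 (SE 1.31, adjusted p = 0.208) was -2.45 without Shal RNAi 1 and 3, and the controls were at 1.62, 2.77 and 0. IM33, a peptide gene induced on infection, was at 196, 109 and 144 against 0.273, 1.4 and 9.09, a log2 fold change of -5.58 (SE 1.30, adjusted p = 0.208) that was -5.11 without those libraries. The groups of IM33 lay well apart, and the controls, at 0.125, 86.4 and 6.08, all lay below Shal RNAi.

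CG34291 (FBgn0085320, chromosome 3R, bases 26425290 to 26425781, minus strand) and CG6503 (FBgn0040606, chromosome 3R, bases 26424698 to 26425105, minus strand) are neighbours. CG34291 was at 705, 209 and 1259.6 against 50.4, 2.19 and 93.4, a log2 fold change of -3.93 (SE 0.98, adjusted p = 0.208), or -2.16 without Shal RNAi 1 and 3. In Notch RNAi against control it had the same direction, -3.34 (SE 1.09, adjusted p = 0.9995). CG6503 was at 6.11, 8.67 and 254 against 0, 0.790 and 0, and its mean rested on Shal RNAi 3.

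All mitochondrially encoded RNAs that were tested stood lower with Notch RNAi added. Of 37 listed, 17 were tested; all 17 had a log2 fold change below 0 (39.9% of all genes), with a median of -3.14 against 0.38 over all genes. At an unadjusted p under 0.05, 15 of 17 were lower, against 6.7% of all genes, and the groups did not overlap in 10, against 4.19%. None passed adjustment. The list was known from earlier results to differ, and these RNAs come from shared precursors, so its members are not independent.

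mt:ATPase6, a subunit of ATP synthase, was at 44815, 7652 and 32376 against 2876, 1299 and 6737, a log2 fold change of -2.96 (SE 0.70, adjusted p = 0.208). mt:ND1, a subunit of complex I, was at 5507, 994 and 5148 against 163, 53.7 and 790.2, a log2 fold change of -3.54 (SE 0.87, adjusted p = 0.208). mt:CoI, a subunit of cytochrome oxidase, was at 40470, 12089 and 27976 against 5566, 1894 and 12807, a log2 fold change of -1.99 (SE 0.64, adjusted p = 0.251). Shal RNAi 1 and 3 were high in each, and Shal RNAi 2 lay close to Notch+Shal RNAi 3; in mt:CoI it lay below it. mt:ATPase8, at 2584.5, 306 and 1509 against 142, 55 and 305, overlaps mt:ATPase6, as other mitochondrial genes overlap their neighbours, and reads may be shared. The large ribosomal RNA mt:lrRNA was at 3530.4, 696 and 5157 against 296, 49.3 and 1445 and the small one, mt:srRNA, at 579.6, 32.4 and 722 against 13.5, 5.79 and 91.4; in both, Notch+Shal RNAi 3 lay above Shal RNAi 2. The list's median was -1.07 without Shal RNAi 1 and 3, with mt:ATPase6 at -1.07, mt:ND1 at -1.58, mt:CoI at -0.84 and mt:srRNA turned to 0.11. The same list had a median of 0.88 in Notch RNAi against control, and the test of the difference between these effects had an unadjusted p under 0.05 for 13 of 17 members (9.16% of all genes). Against control, with libraries shared between the comparisons, its median was 3.23 for Shal RNAi and 0.14 for Notch+Shal RNAi.

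Nuclear genes for oxidative phosphorylation also had a median below 0. Of 68 tested, 17 were above and 51 below 0, with a median of -0.60; at an unadjusted p under 0.05, 15 were lower (6.7% of all genes) and 1 was higher (5.59%). The median was -0.29 without Shal RNAi 1 and 3. UQCR-11, a complex III subunit, was at 8068, 1042 and 6306 against 589, 152 and 1454, a log2 fold change of -2.81 (SE 0.75, adjusted p = 0.208). UQCR-6.4, of the same complex, was at 2169, 346 and 2569 against 245, 44.3 and 425, and ND-MLRQ at 5786, 617 and 4476 against 468, 126 and 1225. In all of UQCR-11, UQCR-6.4 and ND-MLRQ, Shal RNAi 2 lay within the range of the double libraries, and without Shal RNAi 1 and 3 the values were -0.52, -0.55 and -0.03. UQCR-C2, the single member higher at an unadjusted p under 0.05, was at 15.9, 26 and 6.27 against 10.4, 351 and 16.2 and turned to -0.36 without Notch+Shal RNAi 2. Mitochondrial ribosomal proteins had a median of -0.57 over 72 genes (-0.17 without Shal RNAi 1 and 3), 21 above and 51 below 0, with 6 lower at an unadjusted p under 0.05 (6.7% of all genes).

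Glycolysis enzymes had 3 members above and 10 below 0 of 13 tested, with a median of -0.68 and 4 lower at an unadjusted p under 0.05 (6.7% of all genes). Hex-A, a hexokinase, was at 1562, 696 and 3199 against 169, 186 and 223, a log2 fold change of -3.24 (SE 0.82, adjusted p = 0.208). Ldh, lactate dehydrogenase, was at 109, 275 and 511 against 9.7, 45.6 and 5.72, a log2 fold change of -3.79 (SE 1.17, adjusted p = 0.246). In Notch RNAi against control Ldh had a log2 fold change of -2.70 (SE 0.99, adjusted p = 0.9995), in the same direction. Pfk, phosphofructokinase, was at 181, 167 and 489 against 22.5, 185 and 42.4, so Notch+Shal RNAi 2 overlapped Shal RNAi. Hex-A was at -1.83 without Shal RNAi 1 and 3, while the list's median was -0.90. The median of the list in Notch RNAi against control was -1.18.

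Ion channels that set excitability had list medians below that of all genes. Of 17 potassium channel genes tested beside Shal, 6 were above and 11 below 0, with a median of -0.30 and 2 lower at an unadjusted p under 0.05 (6.7% of all genes). Sh, the Kv1 channel, was at 1728, 1385 and 2009 in Shal RNAi and at 698, 379 and 782 in Notch+Shal RNAi. The groups did not overlap, and the log2 fold change was -1.46 (SE 0.58, adjusted p = 0.338). The controls were at 1201, 728 and 721, and Control 1 alone of them lay above the double libraries. SK, the small-conductance calcium-activated channel, was at 295, 297 and 841 against 116, 66.5 and 149.8, a log2 fold change of -2.12 (SE 0.76, adjusted p = 0.301).

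slo, the large-conductance calcium-activated channel, was at 420.4, 449 and 1051 against 248, 145 and 239, a log2 fold change of -1.61 (SE 0.78, adjusted p = 0.406). Its groups did not overlap in normalised CPM. In CPM by library total they did, as Notch+Shal RNAi 1 lay above Shal RNAi 1. Shab, the Kv2 channel, was at 185, 177 and 262 against 74.3, 119 and 61.1, a log2 fold change of -1.28 (SE 0.70, adjusted p = 0.445). Shaw, the Kv3 channel, was at 32.2, 6.94 and 2.39 against 1.5, 31.9 and 15.2, with overlap and a value of 0.53 that turned to -0.48 without Notch+Shal RNAi 2. Kr, the Krüppel factor named above, was at 54.5, 92.1 and 0.298 against 15, 20.5 and 31.3, a log2 fold change of -1.22 (SE 0.98, adjusted p = 0.597), with overlap. Without Shal RNAi 1 and 3 the values of Sh, SK and slo were -1.15, -1.42 and -1.08, Shaw was at 1.35 and Kr at -2.04, and the median of the potassium channels was 0.05.

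Among 18 sodium, calcium and cation channel genes, 6 were above and 12 below 0, with a median of -0.72 and 3 lower at an unadjusted p under 0.05 (6.7% of all genes). para (FBgn0285944, chromosome X, bases 16455027 to 16533096, minus strand), the only voltage-gated sodium channel gene known to carry the fast sodium current in fly neurons, was at 4849, 1067 and 4843 against 918, 264 and 567. The groups did not overlap, and Shal RNAi 2 lay next to Notch+Shal RNAi 1. Its log2 fold change of -2.62 (SE 0.75, adjusted p = 0.224) was -0.86 without Shal RNAi 1 and 3. pum, the Pumilio repressor that binds para RNA, was at 3403, 587 and 3594 against 386, 145 and 998, and Shal RNAi 2 lay among the double libraries; its value of -2.31 was -0.21 without Shal RNAi 1 and 3. Ih, the hyperpolarisation-activated cation channel, was at 938, 854 and 1295 against 560.3, 152 and 261, a log2 fold change of -1.67 (SE 0.67, adjusted p = 0.341). cac, the calcium channel of active zones, was at 743, 919 and 652 against 504, 473 and 315, and its log2 fold change was -0.84 (SE 0.60, adjusted p = 0.544). The median of this list was 0.27 without Shal RNAi 1 and 3, so its direction rests on those libraries. para overlaps Cnx14D on the same strand.

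The sodium pump and chloride transport list had 4 members above and 6 below 0, with a median of -0.53. Atpalpha, the catalytic subunit of the sodium pump, was at 5759, 4306 and 8062 against 2685, 2977 and 1179. The log2 fold change was -1.41 (SE 0.56, adjusted p = 0.341), or -0.87 without Shal RNAi 1 and 3. The groups did not overlap in normalised CPM. In CPM by library total they did, as Notch+Shal RNAi 2 lay above Shal RNAi 1. Calcium handling genes had a median of -0.34 over 19 genes, 7 above and 12 below 0. Orai, the store-operated calcium channel, was at 0.407, 4.4 and 0.597 against 10.2, 35.1 and 16.7, a log2 fold change of 3.05 (SE 1.39, adjusted p = 0.377).

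Genes of transmitter release also had a median below 0. Of 33 synaptic release genes tested, 8 were above and 25 below 0, with a median of -0.64; 4 were lower at an unadjusted p under 0.05 (6.7% of all genes), and 6 were lower without overlap of the groups (4.19%). EndoA, the endophilin of vesicle endocytosis, was at 236, 113 and 189 against 24.6, 11.9 and 26.1. Each Shal RNAi library lay above each double library and each control (4.74, 23.1 and 21.3), and the log2 fold change was -3.12 (SE 0.84, adjusted p = 0.208). Synj, the phosphatase synaptojanin that strips clathrin from vesicles, was at 415, 65.3 and 389 against 30.5, 119 and 8.59, with Shal RNAi 2 below Notch+Shal RNAi 2. Syt1, the calcium sensor of release, was at 1217, 861 and 1862 against 419.6, 499 and 243, a log2 fold change of -1.76 (SE 0.61, adjusted p = 0.288). brp, the scaffold of the active zone, was at 297, 259 and 509.6 against 423, 402 and 277, with overlapping groups and a log2 fold change of 0.05 (0.54 without Shal RNAi 1 and 3). Without Shal RNAi 1 and 3 the list's median was -0.22, against 0.50 for all genes, with EndoA at -2.45 and Syt1 at -1.11, and Synj went from -2.39 to -0.18.

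Presynaptic homeostasis genes had a median of -0.39 (0.32 without Shal RNAi 1 and 3) over 13 genes, 6 above and 7 below 0, with Mctp the single member lower at an unadjusted p under 0.05 (6.7% of all genes). inc, the insomniac adaptor of Cul3, was the single member higher at that threshold (5.59% of all genes). It was at 57, 90.3 and 5.97 against 249, 269.7 and 21.2, with overlapping groups. Its log2 fold change was 1.77 (SE 0.83, adjusted p = 0.394), or 1.05 without Shal RNAi 1 and 3. Activity-regulated genes had a median of 0.05, 9 above and 6 below 0, which turned to -0.16 with TMMwsp scaling and to -0.02 in DESeq2 and was 0.21 without Shal RNAi 1 and 3. Of these, Pdp1, a circadian leucine zipper factor, was at 617, 187 and 763 against 69.1, 57.1 and 163, a log2 fold change of -2.44 (SE 0.85, adjusted p = 0.288) that was -0.96 without those libraries.

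Neurotransmitter receptors had 11 members above and 21 below 0 of 32 tested, with a median of -0.48; at an unadjusted p under 0.05, 2 were higher (5.59% of all genes) and 4 lower (6.7%). Dop2R, a dopamine receptor, was at 96.9, 29.1 and 49.2 against 0.273, 3.69 and 3.03, a log2 fold change of -4.49 (SE 1.26, adjusted p = 0.208). GABA-B-R1, a metabotropic GABA receptor subunit, was at 1579, 238 and 1396 against 332, 123 and 192, and Shal RNAi 2 lay among the double libraries. Octbeta3R, an octopamine receptor, was at 1845, 551 and 1658 against 492, 327 and 312, a log2 fold change of -1.84 (SE 0.66, adjusted p = 0.301). GABA-B-R1 went from -2.31 to -0.13 without Shal RNAi 1 and 3, Octbeta3R was at -0.52, and the list's median was -0.03. In the other direction nAChRalpha2 and Oamb were high in Notch+Shal RNAi 2 with 50.8, 409.9 and 13.3 and 21, 356 and 3.54, and without that library their values turned to -0.20 and -0.81.

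Cell recognition genes had 9 members above and 24 below 0 of 33 tested, with a median of -0.66; at an unadjusted p under 0.05, 2 were higher (5.59% of all genes) and 8 lower (6.7%). Nrg, the L1-type adhesion molecule neuroglian, was at 2317, 1170.2 and 3992 against 665, 581 and 622. The groups did not overlap and the log2 fold change was -2.0 (SE 0.60, adjusted p = 0.246). Dscam4 was at 0.407, 58.7 and 401 against 3.55, 8.08 and 0.168, and Shal RNAi 1 lay within the double libraries. fra, the netrin receptor frazzled, was at 6.51, 23.1 and 0 against 45.6, 82.1 and 65, a log2 fold change of 2.41 (SE 0.99, adjusted p = 0.345). robo2, a Slit receptor, rested on Notch+Shal RNAi 3, at 0, 0.878 and 199, and turned to -2.81 without it. Nrg was at -0.88, fra at 1.52 and the median of the list at 0.04 without Shal RNAi 1 and 3.

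Of the Notch pathway, 28 genes were listed and 27 tested, N among them. They had 15 members above and 12 below 0, with a median of 0.12 against 0.38 for all genes, which turned to -0.07 with TMMwsp scaling and was 1.17 without Shal RNAi 1 and 3. At an unadjusted p under 0.05, 5 were higher (5.59% of all genes) and 3 lower (6.7%). Ligands had low counts: Delta was at 16.3, 0 and 0 against 0, 4.92 and 102, with a log2 fold change of 3.31 (SE 2.17, adjusted p = 0.519). mib1, the ligase that prepares ligands for signalling, was at 4.07, 0.133 and 0.298 against 2.05, 45 and 14, a log2 fold change of 4.50 (SE 2.14, adjusted p = 0.399), or 7.24 without Shal RNAi 1 and 3. lqf, the epsin that helps ligand endocytosis, was at 2610.2, 345 and 1151 against 396, 351 and 328, and turned from -1.93 to 0.08 without Shal RNAi 1 and 3.

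Of the enzymes that cleave Notch, Psn, the catalytic presenilin of gamma-secretase, was at 8.95, 57.1 and 32.8 against 99.1, 223 and 56.2, a log2 fold change of 1.83 (SE 0.77, adjusted p = 0.354). pen-2, another subunit, was at 1187, 153 and 544 against 182, 56.8 and 278, and turned from -1.87 to 0.16 without Shal RNAi 1 and 3. Nedd4, a ubiquitin ligase that lowers Notch at the surface, was at 6.92, 46.3 and 10.7 against 80.5, 178 and 36.2, a log2 fold change of 2.02 (SE 0.94, adjusted p = 0.392). gro, the groucho corepressor, was at 299, 89.4 and 461 against 33.8, 46.1 and 93.8, a log2 fold change of -2.29 (SE 0.74, adjusted p = 0.252). Su(H), the DNA-binding partner of Notch, was at 27.3, 4.94 and 49.5 against 31.7, 21.2 and 20.9, with a log2 fold change of -0.03. The values were 1.22 for Psn, 1.17 for Nedd4, -0.62 for gro and 2.34 for Su(H) without Shal RNAi 1 and 3. With all libraries, subunits of one enzyme thus stood in opposite directions, and groups overlapped in Nedd4, Psn, pen-2 and lqf.

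Of 15 listed Notch targets, 10 were tested; 9 were above and 1 below 0, with a median of 1.5 against 0.38 for all genes. A single one, E(spl)m7-HLH, had an unadjusted p under 0.05, in the higher direction (5.59% of all genes). It was at 0, 9.87 and 0 against 0.137, 14 and 156, and the value of 3.46 was 0.64 without Notch+Shal RNAi 3. E(spl)malpha-BFM was at 15.5, 14.1 and 0.895 against 0, 6.15 and 214, and E(spl)m8-HLH at 0.407, 3.07 and 0 against 0, 5.0 and 45.1. In each of these 3 genes, Notch+Shal RNAi 3, the library with the most N, was the highest, and the groups overlapped. ct, a homeodomain factor, was at 411, 259.9 and 772 against 459, 345 and 601, a log2 fold change of -0.04 that turned to 0.87 without Shal RNAi 1 and 3, where the list's median was 0.88. In Notch RNAi against control the list's median was -0.74.

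**Figure D4:**
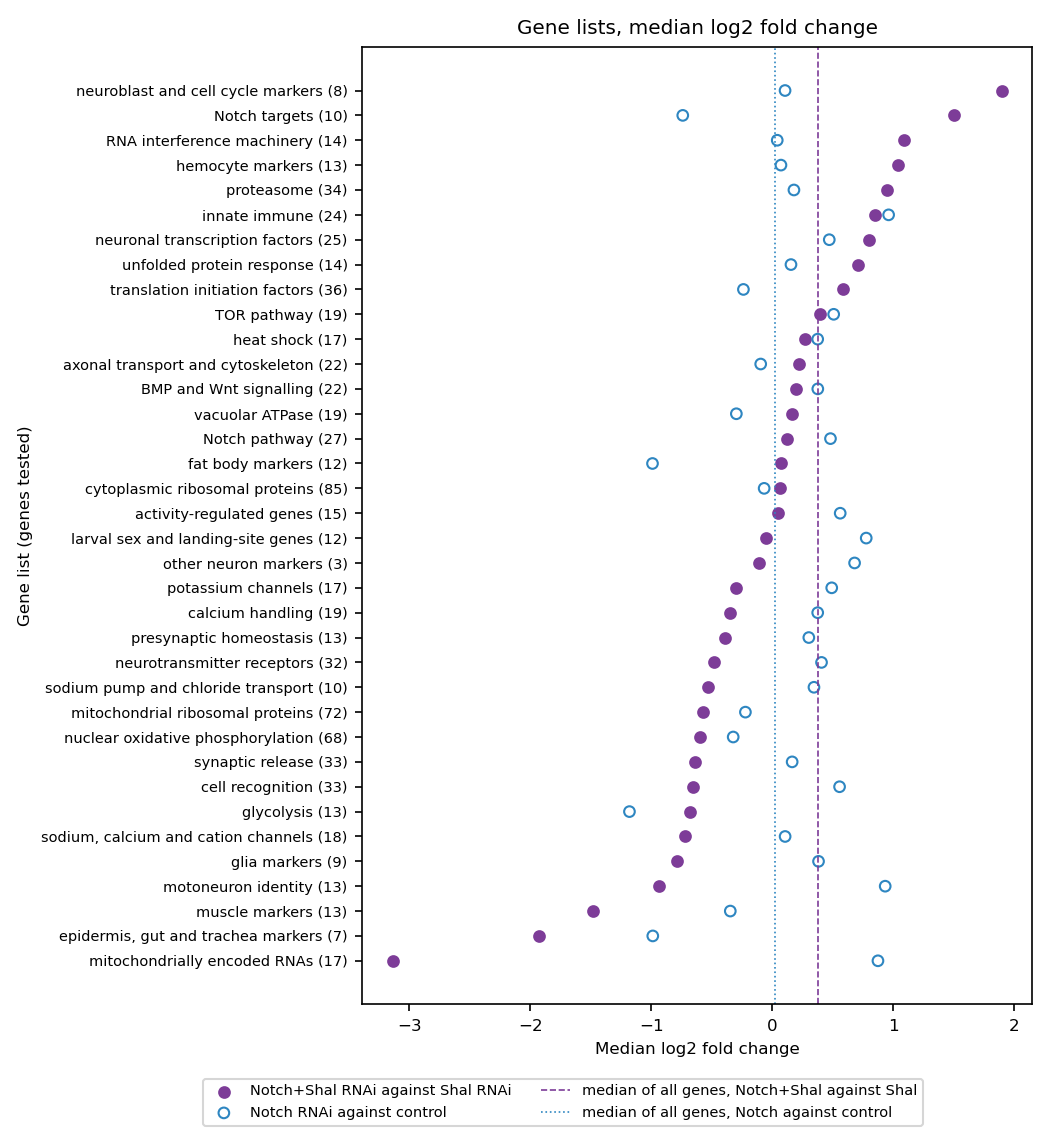
Median log2 fold change of each gene list in Notch+Shal RNAi against Shal RNAi (filled) and in Notch RNAi against control (open), with the number of genes tested in brackets; the lines mark the medians over all genes, 0.38 and 0.03. Mitochondrially encoded RNAs lie at -3.14 and 0.88, while most other lists lie between -1 and 1 in the main comparison.

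Motoneuron identity genes had 4 members above and 9 below 0 of 13 tested, with a median of -0.93, which was 0.66 without Shal RNAi 1 and 3. Proc, the proctolin neuropeptide, was at 5016, 3698 and 6149 against 1915, 1669 and 803, a log2 fold change of -1.76 (SE 0.63, adjusted p = 0.301); the groups did not overlap. Toll-6, a neurotrophin-type receptor, was at 2645, 518 and 2160.3 against 547, 1139 and 240.1, with overlap, and its value of -1.46 turned to 0.37 without Shal RNAi 1 and 3. eve, the even-skipped factor of dorsally projecting motoneurons, was at 39.5, 12.4 and 43.9 against 19.4, 741 and 13; without Notch+Shal RNAi 2 its value of 3.12 turned to -0.79. DIP-alpha was at 8.95, 20.6 and 0.597 against 0.137, 0.176 and 1.35, low throughout, and it overlaps lncRNA:CR34335.

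Neuronal transcription factors had 14 members above and 11 below 0, with a median of 0.80, and 5 in each direction at an unadjusted p under 0.05 (5.59% of all genes higher and 6.7% lower). scrt, the scratch zinc finger factor, was at 1608, 1476 and 3281 against 384, 261 and 265, a log2 fold change of -2.81 (SE 0.80, adjusted p = 0.224) without overlap. chinmo, a factor of neuronal timing, was at 1397, 2038 and 3929 against 677, 279 and 581, a log2 fold change of -2.26 (SE 0.80, adjusted p = 0.293), also without overlap. hb, hunchback, was higher, at 4.88, 0.267 and 4.18 against 44, 65.1 and 22.4, a log2 fold change of 4.30 (SE 1.48, adjusted p = 0.280), or 7.35 without Shal RNAi 1 and 3. CoRest, a corepressor, was at 1.22, 3.6 and 3.28 against 2.19, 83.5 and 19.5, with overlap.

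BMP and Wnt signalling genes had 12 members above and 10 below 0, with a median of 0.19 that turned just below 0 with TMMwsp scaling and was 0.58 without Shal RNAi 1 and 3. Smox, the Smad of the activin branch, was at 41.5, 18.3 and 52.2 against 80.3, 375 and 61.1, a log2 fold change of 2.28 (SE 0.82, adjusted p = 0.298) without overlap. fz, a Wnt receptor, was at 0.814, 10.01 and 0.298 against 17.2, 41.7 and 43.1, a log2 fold change of 2.69 (SE 1.16, adjusted p = 0.354). The TOR pathway list had 12 above and 7 below 0, with a median of 0.40. REPTOR, the transcription factor that TOR holds in the cytoplasm, was at 899, 162 and 469 against 70.5, 153 and 199.7, a log2 fold change of -1.84 (SE 0.73, adjusted p = 0.337), and -0.17 without Shal RNAi 1 and 3. Notch RNAi against control gave REPTOR a value of the opposite sign, 1.62 (SE 0.70, adjusted p = 0.9995), and the test of the difference between these effects gave an adjusted p of 0.451.

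Proteasome subunits stood higher with Notch RNAi added. Of 48 listed genes 34 were tested; 33 were above and 1 below 0, with a median of 0.95 against 0.38, and 6 were higher at an unadjusted p under 0.05 (5.59% of all genes). Rpn1, a scaffold of the regulatory particle, was at 34.2, 53.1 and 28.6 against 98.4, 492 and 58.8, a log2 fold change of 2.45 (SE 0.83, adjusted p = 0.278) without overlap. Rpt1 and Rpt6, ATPases of its base, had log2 fold changes of 1.74 (SE 0.70, adjusted p = 0.338) and 1.71 (SE 0.69, adjusted p = 0.341). Rpt6 was at 31.7, 247 and 65.9 against 605, 396 and 177, so Shal RNAi 2 lay among the double libraries. Prosbeta4, the single member below 0, was at 624, 432 and 595 against 435, 253 and 742. Summed over the list, CPM by library total was 2682, 9088 and 2293 in Shal RNAi and 13302, 13992 and 8565 in Notch+Shal RNAi, so Shal RNAi 2 again overlapped. Without Shal RNAi 1 and 3 the median was 0.46, against 0.50 for all genes, with Rpt1 at 1.00, Rpt6 at 0.70 and Prosbeta4 above 0.

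Genes of the unfolded protein response had 13 members above and 1 below 0, with a median of 0.71 and 3 higher at an unadjusted p under 0.05 (5.59% of all genes). ERp60, a disulphide isomerase, was at 86.3, 305 and 130.4 against 713, 354 and 409, a log2 fold change of 1.47 (SE 0.61, adjusted p = 0.351) without overlap that was 0.71 without Shal RNAi 1 and 3. Hrd3, of the degradation complex in the endoplasmic reticulum, was at 0, 6.94 and 0 against 13.1, 70.6 and 7.07. Gp93, a chaperone of the Hsp90 type, rested on Notch+Shal RNAi 2, at 60.8, 594 and 77.6.

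Heat shock genes lay in both directions, 10 above and 7 below 0 with a median of 0.27. Hsp27, a small chaperone, was at 388, 936 and 329 against 1518, 2905 and 2466, a log2 fold change of 2.05 (SE 0.62, adjusted p = 0.246) without overlap, or 1.33 without Shal RNAi 1 and 3. Hsp26, a small chaperone of the same cluster, was at 110.3, 90.6 and 17.3 against 92.8, 443 and 466, a log2 fold change of 2.20 (SE 0.95, adjusted p = 0.355), with overlap. Hsc70-4 rested on Notch+Shal RNAi 2, at 121, 3478 and 249.5, and turned to -0.14 without it. Hsp70Bb, an inducible Hsp70 gene, was lower, at 6719, 1544 and 5461 against 1862, 923 and 790.0, a log2 fold change of -1.94 (SE 0.63, adjusted p = 0.252) that was -0.35 without Shal RNAi 1 and 3. In Notch RNAi against control, Hsp70Bb had a value of 1.35 (SE 0.59, adjusted p = 0.9995), and the test of the difference gave an adjusted p of 0.451. Hsp70 copies are nearly identical, and their counts are uncertain.

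Translation initiation factors had 29 members above and 7 below 0, with a median of 0.59 (0.26 without Shal RNAi 1 and 3); 3 were higher (5.59% of all genes) and 4 lower (6.7%) at an unadjusted p under 0.05. eIF4EHP, a cap-binding repressor, was at 926, 679 and 816 against 199, 126 and 179, a log2 fold change of -2.27 (SE 0.68, adjusted p = 0.245) without overlap. eIF4G2 was at 591, 179.8 and 681 against 157, 116 and 63.8, a log2 fold change of -2.09 (SE 0.71, adjusted p = 0.276), also without overlap, that was -0.64 without Shal RNAi 1 and 3. eIF2D, a factor of noncanonical initiation, was higher in Notch+Shal RNAi 1 and 2, at 54.4, 37.8 and 4.38 against 0.814, 0.133 and 5.97 in Shal RNAi.

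Cytoplasmic ribosomal proteins had 45 members above and 40 below 0, with a median of 0.06, which turned to -0.22 with TMMwsp scaling and was 0.61 without Shal RNAi 1 and 3; 9 were higher (5.59% of all genes) and 3 lower (6.7%) at an unadjusted p under 0.05. RpLP2, of the ribosomal stalk, was at 281, 408 and 351 against 508, 1141 and 2170.1, a log2 fold change of 1.87 (SE 0.62, adjusted p = 0.267) without overlap. RpL39 was at 10863, 1218 and 7291 against 1399.7, 276 and 2647; its value of -2.16 turned to 0.24 without Shal RNAi 1 and 3, as did those of RpL38 and RpL41.

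Vacuolar ATPase subunits had 12 members above and 7 below 0, with a median of 0.16 (-0.05 with TMMwsp scaling and 0.06 without Shal RNAi 1 and 3). Vha100-2 had no count in Shal RNAi and was at 16.8, 7.46 and 26.8 in Notch+Shal RNAi, at least 20.3-fold higher. Axonal transport and cytoskeleton genes had 13 above and 9 below 0, with a median of 0.22 that turned just below 0 with TMMwsp scaling and was 0.07 without Shal RNAi 1 and 3. Of these, futsch, a microtubule-associated protein of synapses, was at 10706, 3189 and 10259 against 2876, 975 and 1718, a log2 fold change of -2.12 (SE 0.67, adjusted p = 0.246) without overlap. stai, the tubulin-binding stathmin, was at 8957, 3444 and 7047 against 3400.5, 1588 and 1560.0, a log2 fold change of -1.57 (SE 0.59, adjusted p = 0.324). Both were smaller without Shal RNAi 1 and 3, futsch at -0.77 and stai at -0.64. Khc, the kinesin heavy chain, was at 16.7, 96.5 and 62.7 against 144, 555 and 74.6, a log2 fold change of 2.07 (SE 0.79, adjusted p = 0.326), and Shal RNAi 2 overlapped the double libraries.

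The machinery of RNA interference itself had 10 members above and 4 below 0 of 14 tested, with a median of 1.09; 3 were higher (5.59% of all genes) and 1 lower (6.7%) at an unadjusted p under 0.05. Dcr-2, which cuts double-stranded RNA, was at 55.8, 63.7 and 0.895 against 183, 172 and 69.4, a log2 fold change of 1.78 (SE 0.89, adjusted p = 0.416). AGO2, the slicer loaded with its products, was at 39.1, 84.2 and 14.6 against 83.1, 89 and 79.98, with overlap and a value of 0.79 that was 0.03 without Shal RNAi 1 and 3. armi, a helicase of the piRNA pathway, had 1 count in Shal RNAi and was at 31.8, 16.2 and 23.7 in the double libraries, a ratio of 301 (53.8 to 11899, 95% exact binomial, counting error only). drosha, which cuts primary microRNAs, had 2 counts in Shal RNAi and was at 19.8, 27.7 and 2.53, a ratio of 128 (35.2 to 1058). AGO3, a piRNA argonaute, was lower, at 641, 136 and 113 against 36.6, 28.5 and 64, a log2 fold change of -2.78 (SE 0.94, adjusted p = 0.276), or -1.66 without Shal RNAi 1 and 3.

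Markers of other cells differed between the groups in part. The 13 muscle markers tested all stood below 0, with a median of -1.48 and 4 lower at an unadjusted p under 0.05 (6.7% of all genes); the groups did not overlap in 5 (4.19%). Mhc, the muscle myosin heavy chain, was at 98.9, 121 and 28 against 4.92, 2.19 and 16.7, and Act57B, a muscle actin, at 398, 601 and 70.7 against 76, 10.9 and 85.5. Summed CPM by library total of all 16 listed muscle markers was 2948, 5273 and 2427 in Shal RNAi and 2003, 1260 and 2109 in Notch+Shal RNAi. The receptor subunits GluRIIA and GluRIIB had no count in these 6 libraries.

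Hemocyte markers had 9 members above and 4 below 0 of 13 tested, with a median of 1.04 (5.14 without Shal RNAi 1 and 3); 5 were higher (5.59% of all genes) and 1 lower (6.7%) at an unadjusted p under 0.05. Hml, hemolectin, was at 5.7, 2.54 and 33.4 against 72.8, 14.1 and 309; eater, a phagocytic receptor, at 0, 1.47 and 0 against 56.2, 2.11 and 105; and Sr-CI, a scavenger receptor, at 6.92, 1.87 and 0.298 against 66.3, 1.84 and 161. Notch+Shal RNAi 1 and 3 were high in all of these and Notch+Shal RNAi 2 was not. PPO1, of crystal cells, was at 722, 17.3 and 529 against 58.3, 18 and 215 and turned from -2.13 to 2.45 without Shal RNAi 1 and 3. Summed CPM by library total of the 14 listed was 848, 219 and 852 in Shal RNAi and 836, 192 and 2521 in Notch+Shal RNAi. The part of muscle and blood cell RNA in the other results was not tested.

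Fat body markers had 7 above and 5 below 0, with a median of 0.07 (-0.23 with TMMwsp scaling and 1.13 without Shal RNAi 1 and 3), and their summed CPM by library total was 11266, 9892 and 6235 against 15574, 1516 and 20345. Glia markers had 3 above and 6 below 0 of 9 tested, with a median of -0.79 that was 1.69 without Shal RNAi 1 and 3; repo and alrm were at 0, and moody rested on Shal RNAi 3. The 8 neuroblast and cell cycle markers tested were all above 0, with a median of 1.90 that was 1.72 with groups at 0 set to their bound. Their summed CPM by library total was 14.1, 95 and 15.3 against 54.9, 105 and 425, and polo, a mitotic kinase, was the single member with an unadjusted p under 0.05 (5.59% of all genes higher). Epidermis, gut and trachea markers had 2 above and 5 below 0, and markers of other neurons 1 above and 2 below. Innate immune genes had a median of 0.85, or 0.56 with groups at 0 set to their bound, and 4.12 without Shal RNAi 1 and 3, with 13 above and 11 below 0. Of these, CecA1, an antimicrobial peptide, rested on Shal RNAi 3.

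Libraries of both groups differed in sex-linked RNA. lncRNA:roX1 belongs to the male dosage compensation complex. In CPM by library total it was at 88.0, 1078 and 2620 in Shal RNAi and at 3823, 1289 and 52.5 in Notch+Shal RNAi. Thus 1 library in each of these groups was low. The controls were at 23.1, 13.5 and 7.73, and Notch RNAi 1 to 4 at 1926, 31.3, 2392 and 64.3. All 3 controls were thus low, while Notch RNAi 1 and 3 were high. The part of this imbalance in Notch RNAi against control, the interaction and the values against control was not tested. The list of sex and landing-site genes, y among them, had 5 above and 7 below 0, with a median of -0.05 that turned to 0.65 without Shal RNAi 1 and 3. w, the white eye colour gene often used as a transgene marker, was at 108, 376 and 277 normalised CPM in Shal RNAi. It was at 125, 604 and 14.5 in Notch+Shal RNAi, with overlap. The controls were at 3.25, 10.5 and 7.82, and Notch RNAi 1 to 4 at 5.69, 0.625, 7.598 and 449. Notch+Shal RNAi 3 thus lay near the controls, and Notch RNAi 4 lay within the range of the libraries with Shal RNAi. What sets these libraries apart from their groups was not tested.

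Notch RNAi against control asks what the same addition does without Shal RNAi. No gene passed in edgeR (0% of 8908), while 385 reached an unadjusted p under 0.05 (4.32%), with 169 higher (1.9%) and 216 lower (2.42%). DESeq2 called 13 higher and 19 lower, and limma voom called 1 higher. Of all 8908 genes, 48.7% had the same sign in both comparisons. Of the 1095 genes at an unadjusted p under 0.05 in the main comparison, 518 had the same sign (47.3%), 57.4% of those higher and 38.9% of those lower. Among the 24 leading genes 13 had the same sign, and y, mthl8, IM33 and CG34291 also had an unadjusted p under 0.05 in Notch RNAi against control.

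The interaction tests whether the difference made by Notch RNAi depends on Shal RNAi. No gene passed in edgeR (0% of 8908), while 816 reached an unadjusted p under 0.05 (9.16%). DESeq2 called 79 higher and 39 lower, and limma voom none. Of the 24 leading genes 19 had an unadjusted p under 0.05 for the interaction, which contains the main comparison they were chosen on. mt:ATPase6 had an interaction of -3.83 (SE 0.93, adjusted p = 0.451) and CanA-14F of -4.20 (SE 1.05, adjusted p = 0.451). pan, at -3.72 (SE 0.99, adjusted p = 0.451), and EndoA, at -4.04 (SE 1.15, adjusted p = 0.451), were likewise lower with Notch RNAi when Shal RNAi was present and stood at log2 fold changes of 0.62 and 0.92 without it. Values against control, from comparisons that share libraries, were 2.58 for pan in Shal RNAi and -0.52 in Notch+Shal RNAi, and 2.73 and 0.11 for para. Interactions and values against control rest in part on Shal RNAi 1 and 3. Without these libraries, the main comparison gave -1.07 for mt:ATPase6, -1.81 for CanA-14F and -2.07 for pan. EndoA was then at -2.45 and para at -0.86.

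**Figure D5:**
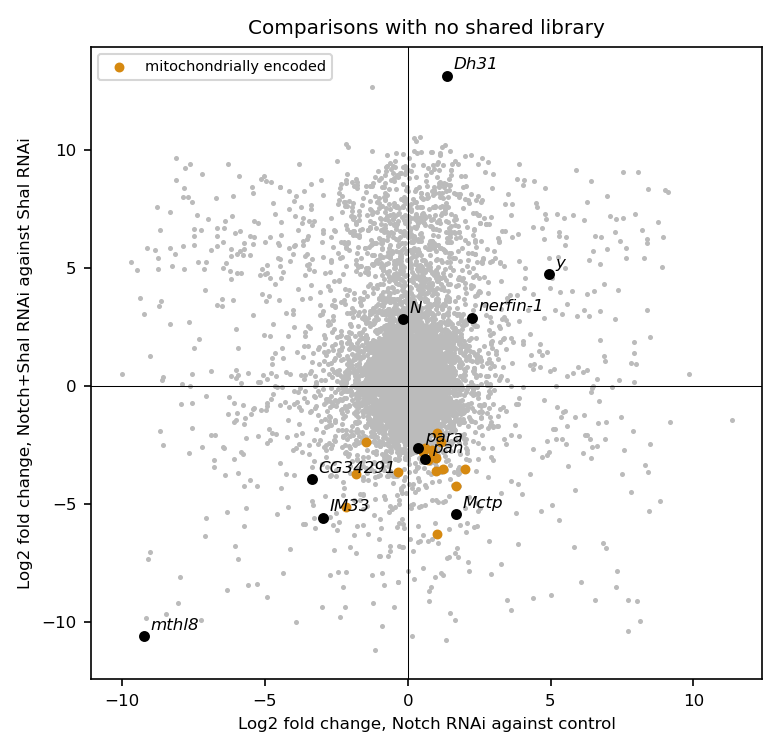
Log2 fold change of 8908 genes in Notch RNAi against control (horizontal) and in Notch+Shal RNAi against Shal RNAi (vertical), which share no library; orange points are mitochondrially encoded and black points are named. Values of genes without counts in a group depend on the prior count of the fit and are not measured folds; y and mthl8 lie far from 0 on both axes, whereas para and pan lie low on the vertical axis only.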

How the data were processed

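The table holds raw counts of 17753 genes in 13 libraries as the authors deposited them; the submitters' processing notes name STAR 2.7.0e, edgeR 3.26.7, limma 3.40.6, R 3.6.1 and the build BDGP6, without the role of each. Reads were amplified by PCR and no molecular identifiers are described in the labels' protocols, so count intervals cover counting error only. Groups were taken from the sample titles and columns. Gene positions come from the BDGP6.54 annotation, in which 17626 IDs were found and 127 were not. No sequence file was used here.

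Genes were filtered with filterByExpr (minimum count of 10, minimum total of 15) and tested with the quasi-likelihood F test of edgeR 4.0.16 in R 4.3.3, with TMM factors, robust dispersion and 1 fit of all 13 libraries. P-values were adjusted by Benjamini-Hochberg over 8908 genes. Every adjusted p given beside a log2 fold change comes from this test, and SE is the absolute log2 fold change divided by the square root of F. Library totals ran from 3783100 to 9319116 counts, and 3 counts corresponded to 0.322 to 0.793 CPM. Counts of libraries in the same group differed by more than sampling noise. The steps were also run on simulated counts with known changes, and the share of these that was recovered is not given here.

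Named genes were Shal, N and nerfin-1; 12 genes per direction with the lowest p, at least 20 normalised CPM in the higher group, a count in each of its libraries and no overlap; up to 3 list members per direction with the lowest p under 0.05; and Sh, Shab, Shaw, slo, para, cac and Kr. Other genes, such as VGlut, Delta, brp, Su(H), mt:CoI, the mitochondrial ribosomal RNAs, Dcr-2 and AGO2, were named for their role after their values were seen. Members and all 36 lists were chosen with earlier results of these data known, and 11 listed names had no match. Alternatives were RLE and TMMwsp factors, factors without mitochondrial genes, other filters, the 6 libraries alone, DESeq2 1.42.0, limma 3.58.1 voom with quality weights, a replicate block, libraries left out and, chosen after seeing the data, the legacy edgeR fit. A result for 1 gene is not reported here.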

Additional observations from a re-analysis of the deposited data

Results flagged for a closer look

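Within the 4 Notch RNAi libraries, single libraries stood far from the rest in 8 of 31 groups of values examined by Dixon's ratio. Its chance rate of about 1 in 20 holds for normally distributed values. The levels used here were not put on a log scale and are skewed. In mthl6, mthl8 and CG6503 the rest of the libraries were equal, which sets the ratio to 1. The count of 8 is therefore not read as an excess. Notch RNAi 4 was low in Shal, at 14.8 normalised CPM, and high in N, at 209, in blow, at 87.4, and in mthl8, at 0.0868, which is a single count. Notch RNAi 3 was high in mthl6, at 6.81, and in CG6503, at 4.19, and its total of 3783100 counts was the lowest of the group. Notch RNAi 2 was high in Mctp, at 16.9. None of these libraries enters the comparison of Notch+Shal RNAi with Shal RNAi.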

How the results depend on the processing

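In Notch+Shal RNAi against Shal RNAi, 0 genes passed adjustment in edgeR with each library left out in turn. DESeq2 called 183 higher and 124 lower, edgeR without a filter 1 higher and 3 lower, and voom 6 lower. In Notch RNAi against control, DESeq2 called 13 higher and 19 lower, TMMwsp 1 higher and 1 lower, and voom and edgeR without a filter 1 higher each; with a library left out, 0 to 1 were higher and 0 to 1 lower. For the interaction, DESeq2 called 79 higher and 39 lower. The replicate block called 1 gene lower in the main comparison, 1 higher in Notch RNAi against control and 9 lower for the interaction; same-numbered Shal RNAi and Notch+Shal RNAi libraries had correlated deviations of -0.039, 0.198 and 0.033, so the numbers were not taken to pair them, and Shal RNAi 1 went best with Notch+Shal RNAi 3. Of 1438 values of the 132 named genes under settings that leave out no single library, 1421 kept their sign. Without Shal RNAi 1 and 3, log2 fold changes turned to 0.084 for lqf, 0.16 for pen-2, 0.14 for REPTOR-BP, 0.24 for RpL39, 0.47 for RpL38, 0.31 for RpL41, 0.25 for mRpL34, 0.54 for mRpS21, 0.37 for Toll-6, 4.67 for moody, 2.45 for PPO1, 5.06 for CecA1 and 5.40 for dsx. In voom they turned to -0.92 for Ranbp21, -0.56 for robo2, -0.65 for Shaw and 0.66 for Kr. With a library left out, 13 genes turned: N ranged from -0.15 to 4.01, robo2 from -2.81 to 4.80, Ranbp21 from -2.65 to 3.86, Tsc1 from -0.13 to 7.18, Hsc70-4 from -0.14 to 3.1, eve from -0.79 to 3.69, nAChRalpha2 from -0.20 to 2.59, Oamb from -0.81 to 3.04, UQCR-C2 from -0.36 to 3.58, Shaw from -0.48 to 1.65, dsx from -10.16 to 5.31, moody from -9.14 to 4.57 and CecA1 from -5.28 to 4.96. The cause was not tested. Genes near 3 counts a library are limited by depth.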
